A study of Arabidopsis thaliana with 6 samples.

Results

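Tetrapyrroles are the ring-shaped pigments and cofactors that plants make in plastids, among them chlorophyll, heme and the bilin chromophore of phytochrome. The route starts from glutamyl-tRNA, runs through 5-aminolevulinic acid to protoporphyrin IX, and there divides: insertion of magnesium leads to chlorophyll, and insertion of iron leads to heme and on to bilins. The first step, the magnesium chelatase and the reduction of protochlorophyllide are known control points, because free intermediates are harmful in light. The genes described here are 31 Arabidopsis thaliana loci of this route, of 32834 loci in the count table, chosen by locus as enzymes or regulators of tetrapyrrole synthesis and not by their values. They comprise 11 genes of the common steps, 14 of the magnesium branch, 4 of the heme and bilin branch and 2 regulators. Earlier results of these data were known when they were chosen.

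Whole 7-day-old seedlings of the Col-0 background were sequenced as poly(A) RNA in 3 groups of 2 libraries. One group was wild type (WT), and the sets labelled MIF_1 and MIF_3 carried Myc-MIF in pTA7002, a plasmid for transgenes induced by dexamethasone. The medium of every group held 10 µM dexamethasone and 1% sucrose, days were long, and the study examined MIF expression together with the plastid RNA editing factor MORF2. Every group had 3 days of cold, 16 h of light (120 µmol m⁻² s⁻¹) at 21 °C and 8 h of dark at 19 °C. No vector-only or dexamethasone-free seedlings were analysed here, so the transgene and its vector cannot be told apart. What the numbers 1 and 3 stand for, and whether replicates were separate cultures, was not given in the labels; p-values therefore measure the spread between these libraries. The labels do not give the locus of MIF either, and its transcript was not looked up. In bulk seedlings, fewer cells of a type and less RNA per cell cannot be told apart.

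Total counts ran from 18262579 to 24698636 per library, and the 31 genes took 1.463% and 1.442% of them in the WT libraries, 1.085% and 1.098% in those of MIF_1, and 1.072% and 1.224% in those of MIF_3. WT replicate 2 stood apart in nuclear rRNA (1.04% of counts, against 0.298% to 0.468% in the 5 other libraries) and in plastid-encoded loci (0.132%, against 0.0203% to 0.0273%). MIF_3 replicates differed most from each other: 26 of 30 tested members were higher in replicate 2 than in replicate 1, against 20 in MIF_1 and 13 in WT. Of 17 root marker genes, 1 rose and 1 fell in MIF_1, and 3 rose (EXPA7, CASP1 and PIN2) and 1 fell in MIF_3; their summed level was 406 to 479.9 CPM in WT, CPM being counts scaled to library size, 386 to 404 in MIF_1 and 363 to 383 in MIF_3. That sum follows its most abundant genes, NRT1.5 (mean 199 CPM in WT and 114 in MIF_3) and PHO1 (114 and 94.1 CPM). By gene, 12 of the 17 root markers lay above 0 in MIF_3 against WT, with a median log2 fold change of 0.43. Both MIF_3 libraries were above both WT libraries for 11 of the 17 and below for 2. Of all tested genes 28.3% lay below in that way, and the share above was not computed. In MIF_1 8 of 17 lay above 0, with a median of -0.10. Of 16 tested shoot marker genes, none of which acts in photosynthesis, 6 fell in MIF_1 (AS1, ATML1, PDF1, GL1, FAMA and KAT1), while 2 fell and 1 rose in MIF_3; their summed level was 983 to 1037 CPM in WT, 797 to 845 in MIF_1 and 821 to 872 in MIF_3, and their median log2 fold change was -0.17 in MIF_1 and -0.10 in MIF_3. Lower calls were 5.88% of the root markers in each set, and 37.5% (MIF_1) and 12.5% (MIF_3) of the tested shoot markers. Of all tested genes, 9.85% fell and 7.82% rose in MIF_1, and 7.47% fell and 5.84% rose in MIF_3. The meristem marker CLV3 was at 0 in 5 libraries. The part of organ makeup in the results below was not tested.

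Many transcripts of the pathway were lower in both transgenic sets, with the largest fall at HEMA1, which encodes the first enzyme, and most calls in the magnesium branch. In MIF_1, 16 of 30 tested members fell and 0 rose, or 53.3% of them, where 9.85% of all 20438 tested genes fell and 7.82% rose. In MIF_3, 10 of 30 fell and 0 rose, or 33.3%, where 7.47% of all tested genes fell and 5.84% rose. These calls are from edgeR's quasi-likelihood test with a threshold of 0.05 on p-values adjusted by Benjamini-Hochberg over the 20438 genes; at an unadjusted p below 0.05 the numbers were 24 and 15, and DESeq2 likewise called 0 members higher. The median log2 fold change of the members was -0.39 in MIF_1 and -0.26 in MIF_3, beside 0.01 for all tested genes in both. Without MIF_3 replicate 1 the MIF_3 median was -0.17, and without its replicate 2 it was -0.33. Both MIF_1 libraries lay below both WT libraries for 26 members, against 28.9% of all tested genes, and both MIF_3 libraries did so for 22, against 28.3%. All 10 members called in MIF_3 were among the 16 called in MIF_1; the comparisons share their WT libraries.

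The number of calls rested on having 2 libraries in each group. It also varied with the groups fitted: with WT and MIF_1 alone, 19 members were lower in MIF_1, against 16 with all groups. Without 1 WT library, 5 (without replicate 1) or 7 (without replicate 2) members passed in MIF_1, and 4 or 3 in MIF_3. Without MIF_1 replicate 1 or 2, 2 or 4 passed in MIF_1, and 6 passed in MIF_3 in either case. Without MIF_3 replicate 1, 5 passed in MIF_3, and without its replicate 2, 13 did; fitting WT and MIF_3 alone left 5. GUN5 and CAO stayed below the threshold of 0.05 under each of 14 alternative settings in both comparisons, as did HEMA1 in MIF_3; every other call was lost under at least 1 of them.

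**Figure D1:**
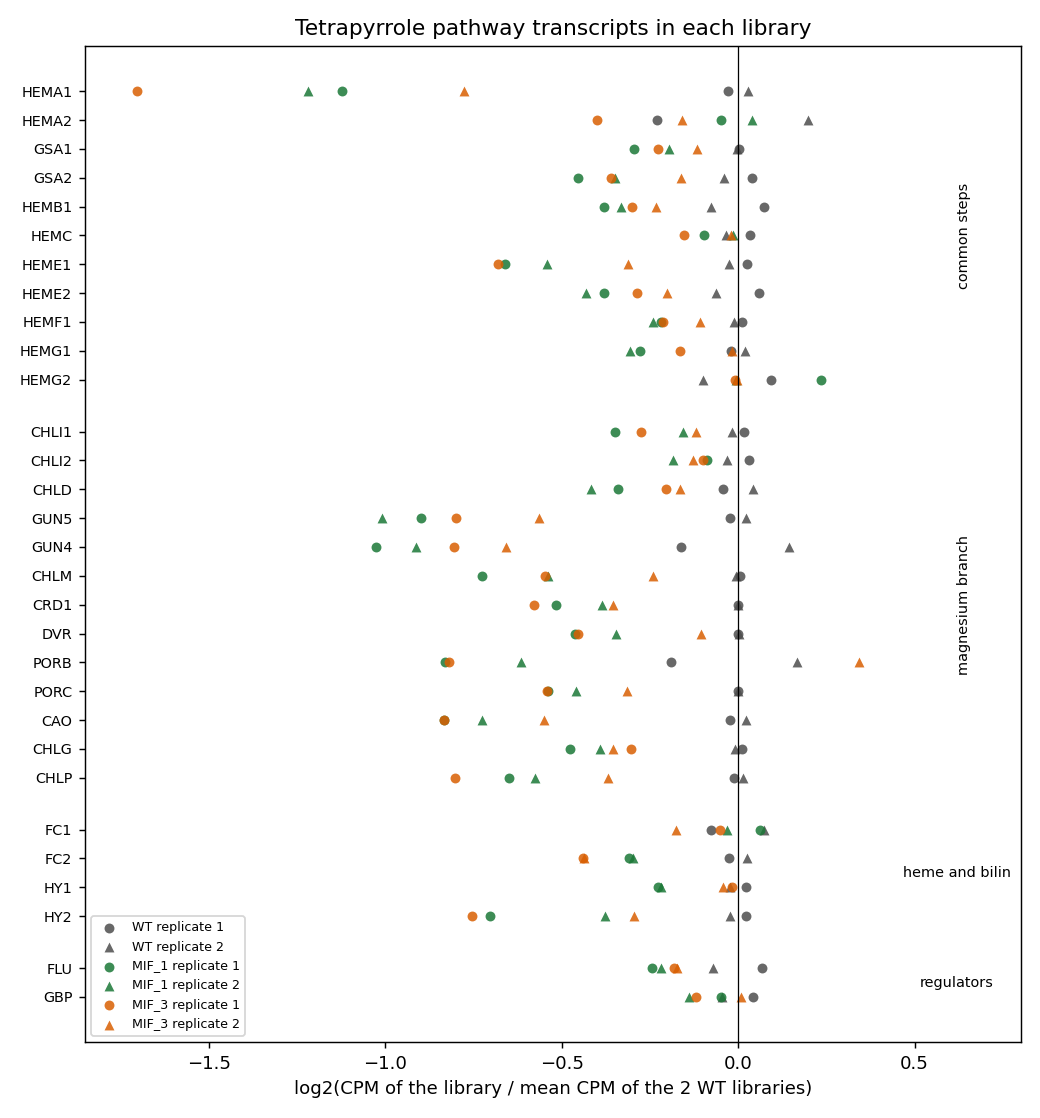
Level of each of the 30 tested members in each library, as the log2 ratio to the mean CPM of the 2 WT libraries (x axis), grouped by branch; circles are replicate 1 and triangles replicate 2. Most MIF_1 and MIF_3 points lie left of 0, HEMA1, GUN5, GUN4 and CAO farthest, and MIF_3 replicate 2 lies right of MIF_3 replicate 1 in 26 of 30 rows.

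Added up, the 31 transcripts reached 15712 and 15870.0 CPM in the WT libraries, 10210.0 and 10407 in those of MIF_1, and 10234 and 12176 in those of MIF_3. The group means in MIF_1 and MIF_3 were 65.3% and 71.0% of WT. The TMM factors, lower in WT than in the transgenic libraries, widen this difference and enter every log2 fold change. As shares of the unscaled counts, given above, the 31 genes also fell in both sets, but by less. A fit on library sizes without such factors was not run. GUN5, CRD1, CHLP and HEMA1 together made up 65.0% of the WT sum, and GUN5 alone 32.6%. GUN5 accounted for 45.4% of the fall of the sum in MIF_1 and 42.0% in MIF_3. Per kilobase of exon, the highest WT levels came in another order: CRD1 was first at 1639 CPM per kb, then GUN5 at 1082, CHLP at 837, CHLI1 at 422 and HEMA1 at 398.

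Upstream sequence is shown for the 4 members with a G-box (CACGTG), a motif bound by light-signalling factors, for HEMA1, the member that fell most, and for its neighbour HO4, a heme oxygenase gene described further on. Each is the 250 bases before the annotated gene start, from RefSeq TAIR10.1, 5′ to 3′ on the gene's strand, with matches of CACGTG, of CCAATC and of the evening element in capitals.
CRD1 (chr3:21076255-21076504, plus strand): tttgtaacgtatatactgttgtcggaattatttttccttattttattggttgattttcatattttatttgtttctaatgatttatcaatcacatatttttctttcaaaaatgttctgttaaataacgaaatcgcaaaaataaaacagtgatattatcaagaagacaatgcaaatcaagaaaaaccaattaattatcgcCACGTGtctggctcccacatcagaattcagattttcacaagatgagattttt
CAO (chr1:16851272-16851521, minus strand): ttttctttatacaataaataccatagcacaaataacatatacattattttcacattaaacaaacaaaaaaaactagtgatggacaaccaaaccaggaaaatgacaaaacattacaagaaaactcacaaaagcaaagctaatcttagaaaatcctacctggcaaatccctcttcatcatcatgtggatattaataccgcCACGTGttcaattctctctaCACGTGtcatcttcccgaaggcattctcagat
FC2 (chr2:12954149-12954398, minus strand): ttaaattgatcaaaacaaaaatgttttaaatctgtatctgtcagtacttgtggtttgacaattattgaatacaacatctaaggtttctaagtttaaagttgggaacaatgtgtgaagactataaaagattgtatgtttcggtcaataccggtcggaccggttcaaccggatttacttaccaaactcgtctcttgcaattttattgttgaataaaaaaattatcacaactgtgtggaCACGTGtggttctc
HY2 (chr3:2803278-2803527, plus strand): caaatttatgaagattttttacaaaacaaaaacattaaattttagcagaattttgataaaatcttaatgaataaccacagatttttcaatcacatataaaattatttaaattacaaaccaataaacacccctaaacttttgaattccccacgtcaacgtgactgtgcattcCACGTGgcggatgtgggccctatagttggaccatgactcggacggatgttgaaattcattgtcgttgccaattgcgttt
HEMA1 (chr1:21626403-21626652, minus strand): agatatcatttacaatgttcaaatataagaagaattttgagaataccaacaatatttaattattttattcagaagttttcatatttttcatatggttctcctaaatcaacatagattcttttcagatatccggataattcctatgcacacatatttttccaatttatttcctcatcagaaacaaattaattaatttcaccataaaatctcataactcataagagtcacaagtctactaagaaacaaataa
HO4 (chr1:21630119-21630368, minus strand): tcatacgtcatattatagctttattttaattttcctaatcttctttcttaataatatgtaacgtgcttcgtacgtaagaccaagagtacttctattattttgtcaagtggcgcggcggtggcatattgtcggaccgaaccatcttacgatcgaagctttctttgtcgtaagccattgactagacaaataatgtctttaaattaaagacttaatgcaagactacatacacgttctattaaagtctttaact
The G-box of CRD1 began at position -52 from the start, those of CAO at -52 and -32, that of FC2 at -14 and that of HY2 at -79. HEMA1 and HO4 held none of the 3 motifs in these windows.

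Motifs were searched on both strands from 250 bases before to 50 after the start, in the 31 members and in 27438 protein-coding genes. CACGTG was in 4 members (12.9%, against 7.68% of all), the evening element AAAATATCT in 2 (6.45%, against 2.82%; PORA and PORB), and TGGGCC in 7 (22.6%, against 15.5%). The short ACGT core, which every G-box contains, was in 20 members (64.5%, against 49.9%), and GATAA in 22 (71.0%, against 60.8%). CCAATC was in 6 members (19.4%, against 12.4%), but in 3 (9.68%, against 10.2%) when the 50 bases after the start were left out, a window added after the first counts had been seen. In that shorter window CACGTG was still in 4 members (12.9%, against 6.49%). Of the 4 members with a G-box, CRD1, CAO and FC2 fell in both sets and HY2 did not pass the test. A match describes letters in a window and no more.

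HEMA1 showed the largest fall of the pathway. It encodes the main glutamyl-tRNA reductase of green tissue, which makes the first committed precursor (AT1G58290, chr1:21623700-21626402, minus strand). Its levels were 903 and 938 CPM in the WT libraries, 422 and 395 in those of MIF_1 and 283 and 537 in those of MIF_3. All 4 transgenic libraries were below both WT libraries, and the MIF_3 libraries lay on either side of the MIF_1 pair. The log2 fold change was -1.17 ± 0.23 in MIF_1 (adjusted p = 0.00767) and -1.17 ± 0.23 in MIF_3 (adjusted p = 0.00952). The SE, here and throughout, came from the model over all 6 libraries, 2 per group. Its estimate of the spread was shared by the groups, so the distance between the MIF_3 libraries entered the SE in MIF_1 too. In MIF_1 the call was lost without MIF_1 replicate 1 or replicate 2 (largest adjusted p = 0.0941), although the log2 value stayed between -1.22 and -1.12. In MIF_3 it passed under every alternative, with log2 values from -1.70 (without MIF_3 replicate 2) to -0.78 (without MIF_3 replicate 1).

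HEMA2 (AT1G09940), the second glutamyl-tRNA reductase gene and known for expression outside green tissue, had 24.7 and 33.2 CPM in the WT libraries, 27.9 and 29.7 in those of MIF_1 and 21.9 and 25.9 in those of MIF_3. Those ranges overlap, and the log2 fold changes of -0.0022 ± 0.15 and -0.27 ± 0.16 did not pass the test (adjusted p = 0.994 and 0.299). HEMA2's share of the counts of both genes was 2.66% and 3.42% in the WT libraries, 6.20% and 6.99% in those of MIF_1, and 7.19% and 4.60% in those of MIF_3. The share was thus higher in each transgenic library than in either WT library, with HEMA1 the member that fell.

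Glutamate-1-semialdehyde aminomutase, which completes 5-aminolevulinic acid, is encoded by GSA1 (AT5G63570) and GSA2 (AT3G48730). GSA2 had 335 and 317 CPM in the WT libraries, 238 and 256 in those of MIF_1 and 254 and 292 in those of MIF_3, and it fell in MIF_1 (-0.40 ± 0.10, adjusted p = 0.0256) but did not pass in MIF_3 (-0.26 ± 0.10, adjusted p = 0.135). For GSA1 the levels were 226 and 225 CPM in the WT libraries, 184 and 197 in those of MIF_1 and 193 and 208 in those of MIF_3, and neither comparison passed (-0.24 ± 0.09 and -0.17 ± 0.09). By CPM, all transgenic libraries were below both WT libraries for both genes. Without the TMM factors, WT and transgenic libraries overlapped for both. Close copies such as these, and the HEMA, HEME, CHLI and POR genes, could share reads; the sources used here do not say how multi-mapped reads were counted.

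The next enzymes join and shape the ring. HEMB1 (AT1G69740), a 5-aminolevulinic acid dehydratase gene, had 273 and 246 CPM in the WT libraries, 199 and 206 in those of MIF_1 and 210.4 and 221 in those of MIF_3 and fell in MIF_1 (-0.36 ± 0.10, adjusted p = 0.0312), with -0.27 ± 0.10 in MIF_3 (adjusted p = 0.103). HEME1 (AT3G14930) and HEME2 encode uroporphyrinogen decarboxylases. HEME1, at 235 and 228 CPM in the WT libraries, 146 and 159 in those of MIF_1 and 144 and 187 in those of MIF_3, fell in both sets, with log2 fold changes of -0.60 ± 0.13 in MIF_1 (adjusted p = 0.0104) and -0.48 ± 0.13 in MIF_3 (adjusted p = 0.0329). HEME2 (AT2G40490), at 282 and 259 CPM in the WT libraries, 208 and 201 in those of MIF_1 and 222 and 235 in those of MIF_3, fell in MIF_1 (-0.40 ± 0.09, adjusted p = 0.0169) and was not called in MIF_3 (-0.24 ± 0.09, adjusted p = 0.127). By CPM, no transgenic library reached the lower WT library for these genes, though without the TMM factors 1 MIF_3 library did so for HEME2. Of 14 alternative settings, the MIF_1 calls held in 8 for HEMB1, 11 for HEME1, 11 for HEME2 and 10 for GSA2. The HEME1 call in MIF_3 held in 7; it was lost with upper-quartile factors, with WT and MIF_3 fitted alone and in 5 of the fits without 1 library, and its log2 value was -0.31 without MIF_3 replicate 1 and -0.68 without replicate 2.

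HEMC (AT5G08280, porphobilinogen deaminase), HEMF1 (AT1G03475, coproporphyrinogen oxidase) and the protoporphyrinogen oxidase genes HEMG1 and HEMG2 passed in neither comparison. HEMG1 (AT4G01690) had 218 and 224 CPM in the WT libraries, 182 and 179 in those of MIF_1 and 197 and 218 in those of MIF_3, with log2 fold changes of -0.29 ± 0.10 and -0.09 ± 0.09. HEMG2 (AT5G14220) had 38.5 and 33.8 CPM in the WT libraries, 42.5 and 36.0 in those of MIF_1 and 35.9 and 36.1 in those of MIF_3, a set of overlapping ranges, with 0.12 ± 0.12 and -0.01 ± 0.12. HEMC gave -0.06 ± 0.09 and -0.09 ± 0.09, and HEMF1 -0.23 ± 0.09 and -0.16 ± 0.09. In all, 5 of 11 genes of the common steps fell in MIF_1 and 2 of 11 in MIF_3, with median log2 fold changes of -0.29 and -0.24.

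The magnesium branch held most of the calls: 10 of 13 tested genes fell in MIF_1 and 7 of 13 in MIF_3, with medians of -0.50 and -0.39. Its summed level was 11988 and 12211 CPM in the WT libraries, 7515 and 7691 in those of MIF_1 and 7643 and 9129 in those of MIF_3.

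Magnesium chelatase inserts magnesium into protoporphyrin IX through the subunits CHLH, CHLI and CHLD. GUN5 (AT5G13630) encodes CHLH, the porphyrin-binding subunit, and is named for the genomes uncoupled screen for plastid-to-nucleus signalling. It was the most abundant member by CPM, at 5071 and 5226 CPM in the WT libraries, 2760.2 and 2559.8 in those of MIF_1 and 2959 and 3485 in those of MIF_3. Every transgenic library was below both WT libraries, and both MIF_3 libraries were above both MIF_1 libraries. The log2 fold change was -0.95 ± 0.10 in MIF_1 (adjusted p = 0.000416) and -0.68 ± 0.10 in MIF_3 (adjusted p = 0.00261). Between the sets, MIF_3 was higher than MIF_1 by 0.28 ± 0.10 (95% interval 0.05 to 0.50, unadjusted p = 0.0225, adjusted p = 0.218), which did not pass.

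CHLD (AT1G08520) had 318 and 337 CPM in the WT libraries, 259 and 246 in those of MIF_1 and 284 and 292 in those of MIF_3, and fell in MIF_1 (-0.38 ± 0.09, adjusted p = 0.0196) but was not called in MIF_3 (-0.19 ± 0.09, adjusted p = 0.223). The ATPase subunit genes passed in neither set. CHLI1 (AT4G18480) was at 687 and 671 CPM in the WT libraries, 534 and 609 in those of MIF_1 and 562 and 625 in those of MIF_3, with -0.25 ± 0.10 and -0.20 ± 0.10. CHLI2 (AT5G45930) was at 105 and 101 CPM in the WT libraries, 97.0 and 90.6 in those of MIF_1 and 96.3 and 94.3 in those of MIF_3, with -0.14 ± 0.10 and -0.11 ± 0.10. By CPM, all 3 genes were lower in every transgenic library than in both WT libraries. This order rests on the TMM factors: without them, WT and transgenic libraries overlapped for each of the 3. The CHLD call held in 10 of 14 alternative settings.

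GUN4 (AT3G59400) encodes the porphyrin-binding protein that stimulates the chelatase. Its levels were low for this pathway, 12.4 and 15.3 CPM in the WT libraries, 6.81 and 7.35 in those of MIF_1 and 7.94 and 8.78 in those of MIF_3, and the groups did not overlap. The log2 fold change was -0.97 ± 0.18 in MIF_1 (adjusted p = 0.00601) and -0.73 ± 0.18 in MIF_3 (adjusted p = 0.0260). Of its 1296 exon bases, 946 overlap AT3G59410 on the opposite strand, and the strand setting of the counting is not given. Reads in the overlap may have been left out, which would lower the level, or counted for either locus. Which of these applied was not tested. The next largest overlaps of members with another locus were 16.2% of exon bases in CHLP, 12.9% in CRD1 and 10.7% in HEMC. The MIF_1 call was lost without MIF_1 replicate 1 (adjusted p = 0.0586), and the MIF_3 call without WT replicate 2 or MIF_3 replicate 1.

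CHLM (AT4G25080) methylates magnesium protoporphyrin. It had 454 and 450.4 CPM in the WT libraries, 273 and 311 in those of MIF_1 and 309.5 and 383 in those of MIF_3, and fell in MIF_1 (-0.63 ± 0.12, adjusted p = 0.00651), whereas -0.39 ± 0.12 in MIF_3 did not pass (adjusted p = 0.0607). CRD1 (AT3G56940) encodes a subunit of the cyclase that closes the fifth ring. Its levels were 2447 and 2446 CPM in the WT libraries, 1711 and 1874 in those of MIF_1 and 1639 and 1912 in those of MIF_3, with the transgenic libraries all lower, and its log2 fold change was -0.45 ± 0.10 in MIF_1 (adjusted p = 0.0149) and -0.46 ± 0.10 in MIF_3 (adjusted p = 0.0163). DVR (AT5G18660), which reduces the 8-vinyl group, had 160.3 and 161 CPM in the WT libraries, 116 and 126 in those of MIF_1 and 117 and 149 in those of MIF_3. It fell in MIF_1 (-0.40 ± 0.12, adjusted p = 0.0492), and MIF_3 missed the threshold (-0.27 ± 0.12, adjusted p = 0.188). Of the 14 settings, the MIF_1 calls held in 13 for CHLM (lost without MIF_1 replicate 1), 10 for CRD1 and 8 for DVR, and the MIF_3 call of CRD1 held in 11.

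Protochlorophyllide oxidoreductases carry out the light-dependent step to chlorophyllide. PORC (AT1G03630), the form known from green leaves in light, had 296 and 296 CPM in the WT libraries, 203 and 215 in those of MIF_1 and 203 and 238 in those of MIF_3 and fell in both sets, with log2 fold changes of -0.50 ± 0.10 in MIF_1 (adjusted p = 0.00964) and -0.42 ± 0.10 in MIF_3 (adjusted p = 0.0252). PORB (AT4G27440) varied most between the MIF_3 replicates, at 108 and 138 CPM in the WT libraries, 69.2 and 80.3 in those of MIF_1 and 69.7 and 156 in those of MIF_3: MIF_3 replicate 2 was the highest library of all and MIF_3 replicate 1 was below WT. Its log2 fold changes of -0.72 ± 0.29 and -0.12 ± 0.29 did not pass (adjusted p = 0.128 and 0.832). Both MIF_1 libraries were nevertheless below both WT libraries. The SE of the MIF_1 value took in the spread of the MIF_3 pair, and without MIF_3 replicate 1 that value was -0.72 as well. The PORC call held in 10 of 14 settings in MIF_1 and in 8 in MIF_3. PORA (AT5G54190), the form of dark-grown seedlings, was not tested, with counts of 7 and 5 in the WT libraries, 0 and 2 in those of MIF_1, and 8 and 12 in those of MIF_3. PORB took 26.7% and 31.8% of the counts of the 3 genes in the WT libraries, 25.4% and 27.2% in those of MIF_1, and 25.5% and 39.6% in those of MIF_3.

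The last steps make chlorophyll b and attach the phytol tail. CAO (AT1G44446), chlorophyllide a oxygenase, had 378 and 389.9 CPM in the WT libraries, 215 and 232 in those of MIF_1 and 216 and 262 in those of MIF_3, with every transgenic library below WT. Its log2 fold change was -0.78 ± 0.11 in MIF_1 (adjusted p = 0.00182) and -0.68 ± 0.11 in MIF_3 (adjusted p = 0.00382). CHLG (AT3G51820), chlorophyll synthase, had 219 and 216 CPM in the WT libraries, 157 and 166 in those of MIF_1 and 177 and 170.3 in those of MIF_3 and fell in both sets, with log2 values of -0.43 ± 0.09 in MIF_1 (adjusted p = 0.0108) and -0.33 ± 0.09 in MIF_3 (adjusted p = 0.0423). CHLP (AT1G74470), the geranylgeranyl reductase that supplies phytyl groups to chlorophyll and tocopherol, had 1731 and 1763 CPM in the WT libraries, 1113 and 1173 in those of MIF_1 and 1003 and 1354 in those of MIF_3, and also fell, with log2 values of -0.61 ± 0.13 in MIF_1 (adjusted p = 0.0112) and -0.57 ± 0.13 in MIF_3 (adjusted p = 0.0199). The CHLG call held in 10 of 14 settings in MIF_1 but in 5 in MIF_3, where it was lost with upper-quartile factors, with the replicate block, with WT and MIF_3 fitted alone and without any 1 of the 6 libraries. The CHLP call held in 10 in MIF_1 and 9 in MIF_3, where its log2 value was -0.37 without MIF_3 replicate 1.

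**Figure D2:**
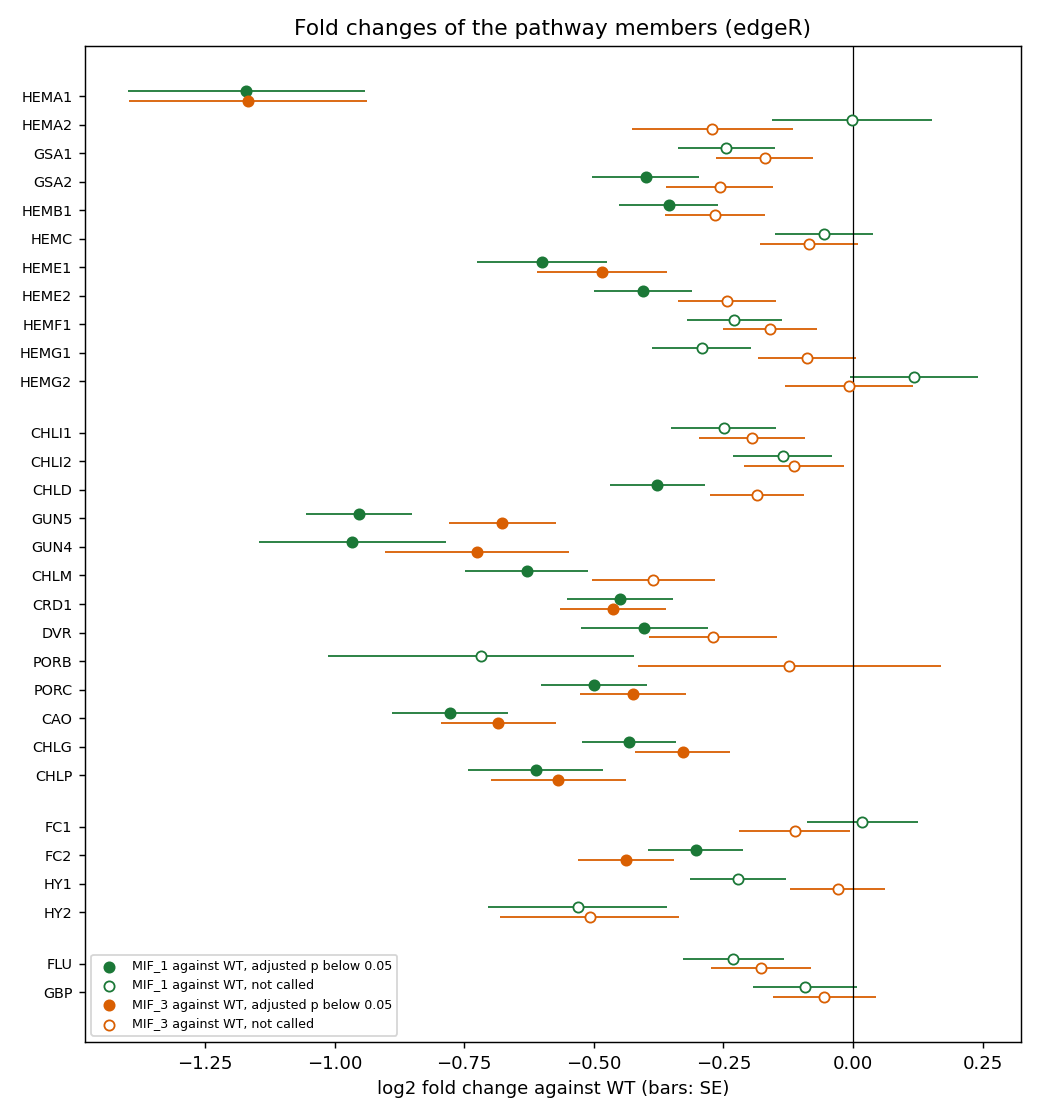
Log2 fold change against WT (x axis) of the 30 tested members in MIF_1 (green) and MIF_3 (orange); bars are SE, and filled circles are genes with an adjusted p below 0.05. Filled circles are 16 in MIF_1 and 10 in MIF_3, all left of 0, and gather at HEMA1 and in the magnesium branch.

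In the heme and bilin branch 1 of 4 genes fell in each set, with medians of -0.26 and -0.28. FC1 and FC2 encode ferrochelatases, which insert iron; FC2 is the form associated with photosynthetic tissue. FC2 (AT2G30390) had 128 and 133 CPM in the WT libraries, 105 and 106 in those of MIF_1 and 96.3 and 96.6 in those of MIF_3, without overlap between WT and either set, and its log2 fold change was -0.30 ± 0.09 in MIF_1 (adjusted p = 0.0481) and -0.44 ± 0.09 in MIF_3 (adjusted p = 0.0132). The MIF_1 call of FC2 held in 5 of 14 settings: it was lost with upper-quartile factors, without the low-count filter, with the replicate block and without any 1 of the 6 libraries. Its MIF_3 call held in 11, and was lost without WT replicate 1, WT replicate 2 or MIF_3 replicate 1. FC1 (AT5G26030) had 62.3 and 69.1 CPM in the WT libraries, 68.6 and 64.3 in those of MIF_1 and 63.4 and 58.1 in those of MIF_3, with overlapping ranges and values of 0.02 ± 0.11 and -0.11 ± 0.11 that did not pass. FC1 took 32.7% and 34.2% of the counts of both genes in the WT libraries, 39.4% and 37.7% in those of MIF_1, and 39.7% and 37.6% in those of MIF_3.

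HY1 (AT2G26670), the main heme oxygenase, opens heme to biliverdin, and HY2 reduces biliverdin to the phytochrome chromophore. HY1 had 112 and 108 CPM in the WT libraries, 94.1 and 94.7 in those of MIF_1 and 109 and 107 in those of MIF_3, with log2 values of -0.22 ± 0.09 and -0.03 ± 0.09 that did not pass. HY2 (AT3G09150) had 25.6 and 24.8 CPM in the WT libraries, 15.5 and 19.4 in those of MIF_1 and 14.9 and 20.5 in those of MIF_3; its values of -0.53 ± 0.17 (adjusted p = 0.0619) and -0.51 ± 0.17 (adjusted p = 0.0848) did not pass either, although all 4 transgenic libraries were below WT. The branch summed to 328 and 335 CPM in the WT libraries, 284 and 285 in those of MIF_1 and 283 and 282 in those of MIF_3.

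Neither regulator passed in either set. FLU (AT3G14110), a negative regulator that binds glutamyl-tRNA reductase, had 128 and 116 CPM in the WT libraries, 103 and 105 in those of MIF_1 and 107 and 108 in those of MIF_3, with -0.23 ± 0.10 and -0.18 ± 0.10. GBP (AT3G21200), which binds glutamyl-tRNA reductase at the thylakoid membrane, had 112 and 105 CPM in the WT libraries, 105 and 98.5 in those of MIF_1 and 99.8 and 109 in those of MIF_3, with -0.09 ± 0.10 and -0.06 ± 0.10.

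Between MIF_3 and MIF_1, edgeR and DESeq2 each called 0 of 30 members in either direction, 1 had an unadjusted p below 0.05 (GUN5), and 1.29% of all tested genes were lower and 0.475% higher. The median member difference was 0.07 on the log2 scale, beside 0.01 for all genes, with 24 of 30 members above 0. For HEMA1 the difference was 0.00 with a 95% interval of -0.50 to 0.51. This comparison turned on single MIF_3 libraries. Without MIF_3 replicate 1, HEMA1 (0.39, adjusted p = 0.0488), GUN5 (0.39, adjusted p = 0.0108) and PORB (1.06, adjusted p = 0.00481) were called higher in MIF_3. Without MIF_3 replicate 2, HEMA1 was called lower (-0.53, adjusted p = 0.0152).

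Beyond the 31 genes, a list of other genes of synthesis and heme oxidation held 14 loci, of which 12 were tested. In each set 1 rose (HO4) and 1 fell (LIL3:2). The lower calls were 8.33% of those tested, near the share of all tested genes, 9.85% in MIF_1 and 7.47% in MIF_3. Of all tested genes 7.82% rose in MIF_1 and 5.84% in MIF_3. LIL3:2, a light-harvesting-like protein that anchors geranylgeranyl reductase, gave -0.55 ± 0.10 in MIF_1 (adjusted p = 0.00546) and -0.38 ± 0.10 in MIF_3 (adjusted p = 0.0329). Of 13 genes of the chlorophyll cycle and breakdown, 3 fell in MIF_1 (23.1%, against 9.85% of all tested genes) and 2 in MIF_3 (15.4%, against 7.47%), and 0 rose. Their median log2 fold change was -0.15 in MIF_1 and -0.08 in MIF_3, with 4 and 6 of the 13 above 0. Those that fell in MIF_1 were SGRL (-0.73 ± 0.10), PAO (-0.75 ± 0.13) and NOL (-0.54 ± 0.12), and in MIF_3 SGRL (-0.56 ± 0.10) and NYC1 (-0.99 ± 0.26). In MIF_1 NYC1 was at -0.79 ± 0.26 and did not pass (edgeR adjusted p = 0.0618), although both libraries were below both WT libraries. PAO (-0.25 ± 0.13) and NOL (-0.31 ± 0.12) did not pass in MIF_3. Between MIF_3 and MIF_1, 0 of the 13 genes were called. SGRL is a relative of the magnesium-dechelatase, PAO opens the chlorophyll ring, and NOL and NYC1 reduce chlorophyll b.

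HO4 (AT1G58300, chr1:21627758-21630118, minus strand) is a minor heme oxygenase gene related to HY1 and lies next to HEMA1 on the same strand, 1355 bases upstream. Its counts were 5 in both WT libraries, 566 and 707 in those of MIF_1, and 165 and 121 in those of MIF_3, or 0.251 and 0.301 CPM in the WT libraries, 23.8 and 29.4 in those of MIF_1 and 6.51 and 4.88 in those of MIF_3. The 3 groups did not overlap, and MIF_1 was above MIF_3. The log2 fold change was 6.57 ± 0.30 in MIF_1 (adjusted p = 3.70e-06) and 4.35 ± 0.33 in MIF_3 (adjusted p = 5.51e-05). From pooled counts, the ratio to WT was 97.1 in MIF_1 (exact 95% interval 52.6 to 203) and 20.8 in MIF_3 (11.2 to 43.9); these intervals, and those of shares, cover counting error only.

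HO4 took 0.177% and 0.212% of the counts of the 4 heme oxygenase genes in the WT libraries, 16.4% and 19.0% in those of MIF_1, and 4.61% and 3.49% in those of MIF_3. HO3 had counts of 0 and 3 in the WT libraries, 11 and 31 in those of MIF_1, and 2 and 6 in those of MIF_3, and was not called. HEMA1 and HO4, neighbours on chromosome 1, thus moved in opposite directions in both sets.

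**Figure D3:**
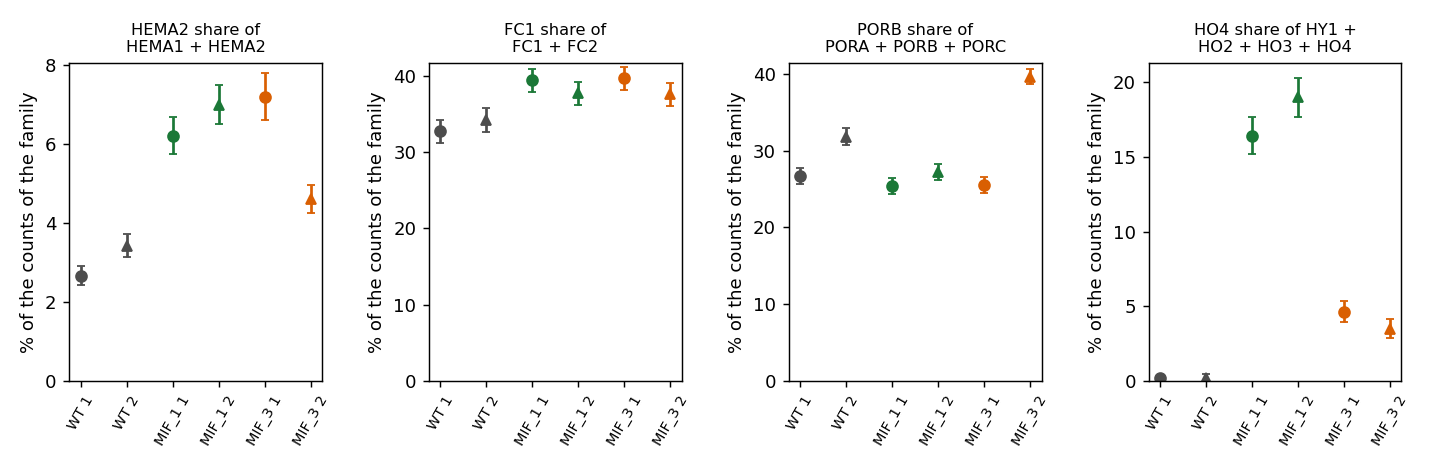
Share of the counts of a gene family taken by HEMA2, FC1, PORB and HO4 (y axes, %) in each library; bars are exact 95% binomial intervals, which cover counting error only. HO4 rises from 0.177% and 0.212% in WT to 16.4% and 19.0% in MIF_1, and HEMA2 is higher in each transgenic library than in WT.

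**Figure D4:**
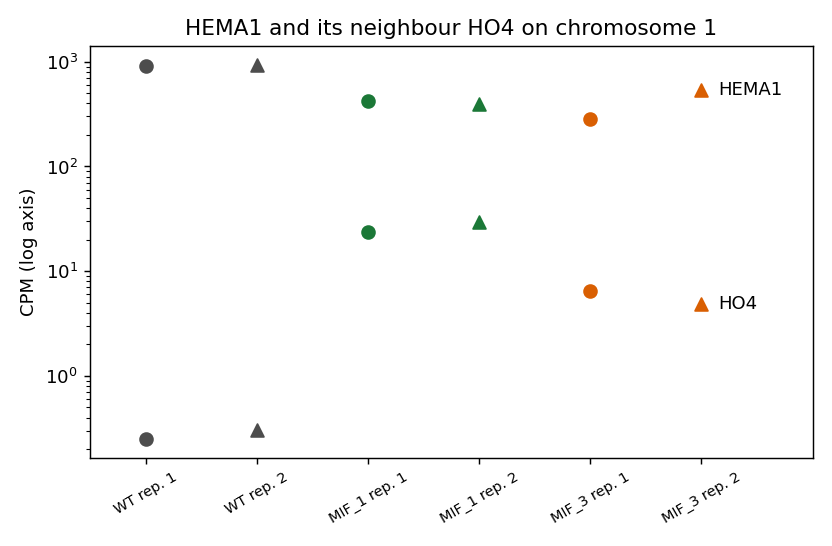
CPM (log axis) of HEMA1 and HO4 in each library. HEMA1 is lower and HO4 higher in all 4 transgenic libraries than in both WT libraries.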

How the data were processed

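Poly(A) RNA of whole seedlings was sequenced in 6 libraries, 2 each of WT, MIF_1 and MIF_3, grouped from their titles. The deposited values were whole-number read counts per locus, without normalization; per the submitters' processing notes the authors used fastp, STAR, the TAIR10 build and HTSeq. The sources used here give no versions, no strand setting and no rule for multi-mapped reads. Every row named a gene. Counts were tested with edgeR 4.0.16 (R 4.3.3) on the 20438 genes kept by filterByExpr (minimum count 10, minimum total 15), with TMM factors and a quasi-likelihood model of group means over all 6 libraries (3 residual degrees of freedom, prior 6.69). P-values were adjusted by Benjamini-Hochberg over all tested genes, and SE was taken as |log2 fold change| / √F. CPM used TMM-scaled library sizes. With 2 libraries per group an exact permutation test cannot go below p = 0.333, so none was used. The model was tested on simulated data.

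The members, the lists and the markers were chosen with earlier results of these data known. By the rule for named genes every member is accounted for by branch, with library values for called members and for gene families. Gene positions, exon overlaps and upstream sequence came from RefSeq TAIR10.1; 28 of 31 names were in that reference, and 18 of 31 members overlap another locus in their exons. Alternatives were upper-quartile or RLE factors, a stricter low-count filter or none, organelle and rRNA loci removed, a replicate block, the compared groups alone, DESeq2 1.42.0, and each library left out. The shorter promoter window was added after seeing the data.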

Additional observations from a re-analysis of the deposited data

Results flagged for a closer look

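HO4 differed between the transgenic sets by the test of the difference itself: MIF_3 against MIF_1 gave a log2 value of -2.22 ± 0.19 (SE; edgeR adjusted p = 0.000819), with 0.251 and 0.301 CPM in the WT libraries, 23.8 and 29.4 in those of MIF_1 and 6.51 and 4.88 in those of MIF_3. It was above WT in both sets, and the call held in every alternative run.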

How the results depend on the processing

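Leaving out 1 library each gave 2 to 18 members lower in MIF_1 against WT and 3 to 13 in MIF_3 against WT, and for MIF_3 against MIF_1 0 to 3 higher and 0 to 1 lower. Genes called ranged from 1332 to 3947 (3612 with all libraries), from 1575 to 2435 (2720) and from 20 to 506 (360) in the same order; a group left with 1 library was assumed to vary like the others. With the compared groups alone, 19 members were lower in MIF_1 against WT and 5 in MIF_3 against WT. Genes called in MIF_3 against MIF_1 were 687 without the low-count filter and 775 with DESeq2. Members holding CCAATC were 3 in the 250 bases before the start alone, against 6. HEMA1 in MIF_3 against MIF_1 was 0.393 without MIF_3 replicate 1 and -0.534 without replicate 2. CLH1, a chlorophyllase gene whose log2 fold change was near 0 with all libraries, was at 0.810 and -1.88 in MIF_3 against WT, and 0.730 and -1.96 in MIF_3 against MIF_1, without MIF_3 replicate 1 and 2 respectively. The cause was not tested. Correlations of replicate 1 deviations between groups were near 0, at -0.0421, -0.0362 and 0.0364. Whether libraries of the same replicate number were handled together was not given. With a replicate block, 15 and 9 members were lower. Of 26 member calls, 26 held with RLE factors, with DESeq2 and without organelle and rRNA loci, and 21 with upper-quartile factors.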
